A study of Macaca mulatta with 22 samples.

Results

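The genes described here belong to the unfolded protein response of the endoplasmic reticulum, measured in single ovulatory follicles of rhesus macaques. The members were SDF2L1, DDIT3, XBP1, HSP90B1 and HSPA5, and every probe set that the platform annotation assigned to 1 of these symbols alone was taken. That gave 6 probe sets of 4 genes, out of 52766 probe sets tested and 14132 genes with a single symbol. XBP1 and HSP90B1 had 2 probe sets each, SDF2L1 and DDIT3 had 1 each, and HSPA5 was absent from the annotation and is not analysed here.

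The unfolded protein response adjusts the folding capacity of the endoplasmic reticulum to the load of newly made secretory and membrane proteins. Its sensors IRE1, PERK and ATF6 lie in the membrane of that compartment. Active IRE1 splices the mRNA of XBP1 into the form that encodes an active transcription factor, PERK phosphorylates the initiation factor eIF2 alpha and so favours translation of ATF4, and cleaved ATF6 enters the nucleus. Their targets include the chaperones HSPA5 and HSP90B1, the HSPA5 cofactor SDF2L1, the machinery that removes misfolded proteins, and DDIT3, which encodes the transcription factor CHOP. In the ovary, the luteinizing hormone surge starts a change of granulosa and theca cells towards luteal cells and makes the follicle wall secrete proteins that remodel it before ovulation.

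RNA of 22 single dominant follicles was hybridised to Affymetrix rhesus macaque arrays, 1 follicle to an array, in 5 groups. All females, the 0 h group included, received the GnRH antagonist Acyline, recombinant human FSH (30 IU) and recombinant human LH (30 IU) once serum estradiol had reached 100 to 120 pg/ml. The 0 h group held 6 follicles taken without hCG. The other groups received 1000 IU of recombinant hCG as the ovulatory stimulus, and held 4 follicles at 12 h, 4 at 24 h, 4 at 36 h taken before ovulation (unruptured) and 4 at 36 h taken after it (ruptured). The titles speak of ovulatory follicles throughout, whereas the description field speaks of luteal tissue for 21 of the samples and of a follicle for 1; the titles were used. Age is not given, and the labels do not say for each array whether the follicles came from separate animals, so a p-value reflects the spread among these follicles, which may in part be technical. The comparisons ask how transcripts changed after the ovulatory stimulus and with rupture of the follicle.

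Values are log2 of the deposited intensities, and a difference of 1 on that scale is a doubling. A gene was called where limma's adjusted p (Benjamini-Hochberg over all 52766 probe sets) was under 0.05. Array medians of the linear intensity lay between 26.1 and 26.7. SDF2L1, DDIT3 and the dimmer XBP1 probe set were brighter on average than 79.3%, 81.6% and 79.4% of the tested probe sets. The brighter XBP1 probe set stood above 96.8% of them and the brighter HSP90B1 probe set above 91.8%. The dimmer HSP90B1 probe set had a mean log2 intensity of 1.89, above only 8.3% of probe sets, and is described separately. Tissue is a mixture of cells in which fewer cells of a type and less RNA per cell cannot be told apart. Steroidogenic markers were bright at 0 h: CYP19A1, the aromatase of granulosa cells, averaged 11.34 ± 0.85 and CYP17A1 of theca cells 12.05 ± 0.40 (SD, n = 6). Other markers of these cells ranged down to 4.33 for INHBB of granulosa cells and 3.94 for PTCH1 of theca cells at 0 h. In unruptured 36 h follicles CYP19A1 averaged 6.0 and CYP17A1 7.5. These markers do not decide between the titles and the descriptions.

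**Figure D1:**
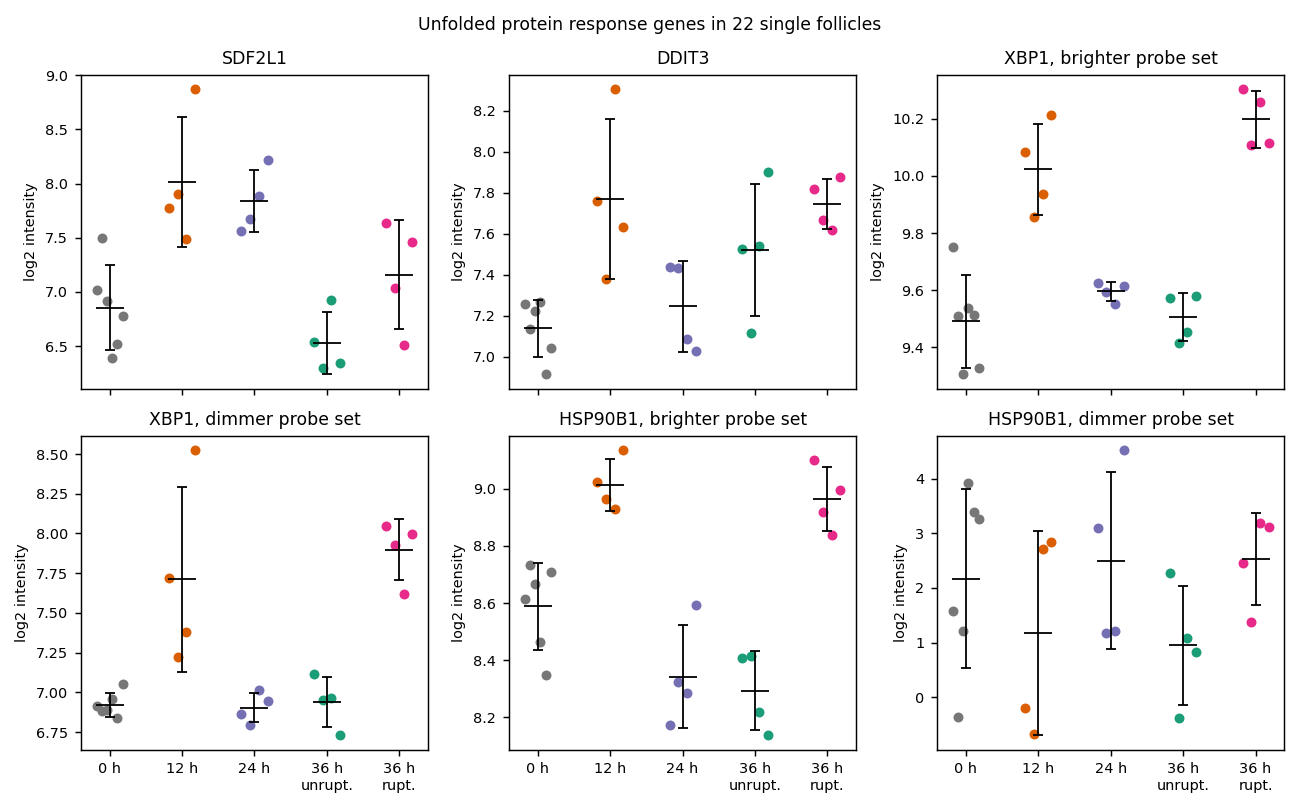
Log2 intensity of each probe set (vertical axis) in every follicle (points) of the 5 groups (horizontal axis, in order of time), with the group mean (long line) and SD (error bars); n = 6 at 0 h and 4 in each other group. SDF2L1 averaged 8.01 at 12 h and 7.84 at 24 h, whereas both XBP1 probe sets and the brighter HSP90B1 probe set were high at 12 h and again in ruptured follicles.

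All 4 measured genes differed between the 5 groups in limma's F test, against 20.1% of all probe sets. Among genes brighter than the median probe set, as these 4 were, 39.7% differed. The adjusted p was 0.000171 for XBP1, 0.000347 for HSP90B1, 0.00319 for SDF2L1 and 0.0256 for DDIT3, each by its brighter probe set, and 0.000854 for the dimmer XBP1 probe set. The means ordered the groups differently from gene to gene. XBP1 and HSP90B1 were high at 12 h, low at 24 h and in unruptured follicles at 36 h, and high in ruptured ones. SDF2L1 averaged 7.84 at 24 h, close to 8.01 at 12 h, and was lowest in unruptured follicles at 36 h. DDIT3 was highest at 12 h and in ruptured follicles, with unruptured 36 h follicles between these and the 0 h level. Without 0 h replicate 5, 3 of the 4 genes were called. The members were chosen with earlier results of these data known, so counts of called members are not independent support.

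XBP1 encodes the transcription factor that IRE1 activates by splicing, and the array gives no separate value for the spliced form. Its brighter probe set read 9.31 at the lowest, 9.51 at the median and 9.75 at the highest of the 0 h follicles. After hCG it read 10.08, 9.86, 9.94 and 10.21 (12 h), then 9.63, 9.59, 9.55 and 9.61 (24 h). At 36 h the unruptured follicles had 9.57, 9.41, 9.45 and 9.58, and the ruptured ones 10.30, 10.11, 10.26 and 10.12. Every 12 h and every ruptured follicle lay above every follicle of the other 3 groups. The dimmer probe set ran from 6.84 to 7.05 at 0 h, then read 7.72, 7.22, 7.38 and 8.53 (12 h) and 6.86, 6.80, 7.01 and 6.95 (24 h). It had 7.12, 6.95, 6.97 and 6.73 in the unruptured 36 h follicles, with 8.04, 7.93, 7.62 and 8.00 in the ruptured ones. It showed the same separation, with 12 h replicate 4 as its highest follicle. Over the 22 arrays the probe sets correlated at r = 0.875, and their deviations from the group means, which no longer hold the differences between groups, at 0.394.

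HSP90B1 encodes GRP94, the HSP90 chaperone of the endoplasmic reticulum, which folds integrins, Toll-like receptors and insulin-like growth factors. Its brighter probe set read 8.35 at the lowest, 8.64 at the median and 8.74 at the highest of the 0 h follicles. After hCG it read 9.02, 8.96, 8.93 and 9.14 (12 h), then 8.17, 8.32, 8.28 and 8.59 (24 h). Unruptured 36 h follicles had 8.41, 8.41, 8.22 and 8.14, and ruptured ones 9.10, 8.92, 8.84 and 8.99. As with XBP1, no 12 h or ruptured follicle overlapped with a follicle of the other 3 groups. The dimmer HSP90B1 probe set ran from -0.68 to 4.52 across the arrays, was called in 0 of the 10 pairs of groups and had an adjusted p of 0.563 in the F test. Detection calls are not used here, so whether it lies above background cannot be said.

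SDF2L1 encodes a luminal protein that works with HSPA5 and its DnaJ partners. At 0 h it read 6.39 at the lowest, 6.85 at the median and 7.50 at the highest. After hCG it read 7.78, 7.90, 7.49 and 8.87 (12 h), then 7.56, 7.68, 7.88 and 8.21 (24 h). The unruptured 36 h follicles had 6.54, 6.29, 6.93 and 6.35, and the ruptured ones 7.63, 7.03, 6.51 and 7.46. The 24 h follicles all lay above the 0 h and unruptured ones, the 12 h group touched the 0 h group in 1 follicle of each, and the ruptured follicles overlapped the 0 h range.

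DDIT3 encodes CHOP, a transcription factor induced through PERK and ATF4 that acts in cell death under lasting stress. At 0 h it read 6.91 at the lowest, 7.18 at the median and 7.27 at the highest. After hCG it read 7.76, 7.38, 8.31 and 7.63 (12 h), then 7.44, 7.43, 7.08 and 7.03 (24 h). Unruptured follicles at 36 h had 7.53, 7.12, 7.54 and 7.90, and ruptured ones 7.82, 7.67, 7.62 and 7.88. The 12 h and ruptured follicles lay above all 0 h follicles, and the 12 h group was the most spread. Its highest follicle, 12 h replicate 3, also had the highest 3′ minus 5′ index of the array's control probe sets, a measure of RNA quality, at 0.482 against 0.288 to 0.323 in the other 12 h follicles.

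At 12 h all 4 genes were higher than at 0 h, against 4.28% of all probe sets called higher (9.33% in either direction). Of the genes brighter than the median probe set, 8.94% rose. SDF2L1 rose most, by 1.16 ± 0.27 (SE; 95% interval 0.59 to 1.73; 2.23-fold; adjusted p = 0.0105, limma). DDIT3 rose by 0.63 ± 0.17 (1.55-fold; adjusted p = 0.0231, limma). XBP1 rose by 0.53 ± 0.10 in its brighter probe set (1.45-fold; adjusted p = 0.00284, limma) and by 0.79 ± 0.18 in its dimmer one (adjusted p = 0.0091, limma). The rise of HSP90B1 was 0.42 ± 0.11 (1.34-fold; adjusted p = 0.0202, limma). The groups did not overlap in DDIT3, XBP1 and HSP90B1, 3 of the 4 genes, as in 4.71% of all probe sets in this direction. Group means at 12 h and 0 h were 8.01 ± 0.60 and 6.85 ± 0.39 for SDF2L1, and 7.77 ± 0.39 and 7.14 ± 0.14 for DDIT3 (SD, n = 4 and 6).

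The calls of SDF2L1 and of both XBP1 probe sets held with any 1 array left out, SDF2L1 at 0.87 and adjusted p = 0.0476 (limma) without its highest follicle, 12 h replicate 4. The DDIT3 call was lost without 0 h replicate 5 (0.58), 12 h replicate 1 (0.63) or 12 h replicate 3 (0.45, adjusted p = 0.0929), and the HSP90B1 call without 12 h replicate 1 (0.42) or 12 h replicate 4 (0.38, adjusted p = 0.0674), so that 2 genes were called without 12 h replicate 1. When only the 0 h and 12 h arrays were fitted, 0 of the 4 genes passed, with the same changes and adjusted p of 0.057 for SDF2L1, 0.0827 for DDIT3, 0.0528 for XBP1 and 0.0836 for HSP90B1 (limma). Of 9 macrophage and monocyte markers 4 rose over this step, with summed intensities of 2620 to 6910 at 12 h and 1850 to 3290 at 0 h. Of 7 granulosa markers 0 rose and 2 fell (summed 3670 to 9890 at 12 h, 8420 to 15200 at 0 h), and of 5 theca markers 0 rose and 3 fell (1460 to 3460 at 12 h, 4340 to 7640 at 0 h). The 6 B and plasma cell markers, of the lineage in which XBP1 drives antibody secretion, had 0 calls and summed to 90.8 to 117 at 12 h and 56.3 to 227 at 0 h. The part of any of these in the rise was not tested.

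**Figure D2:**
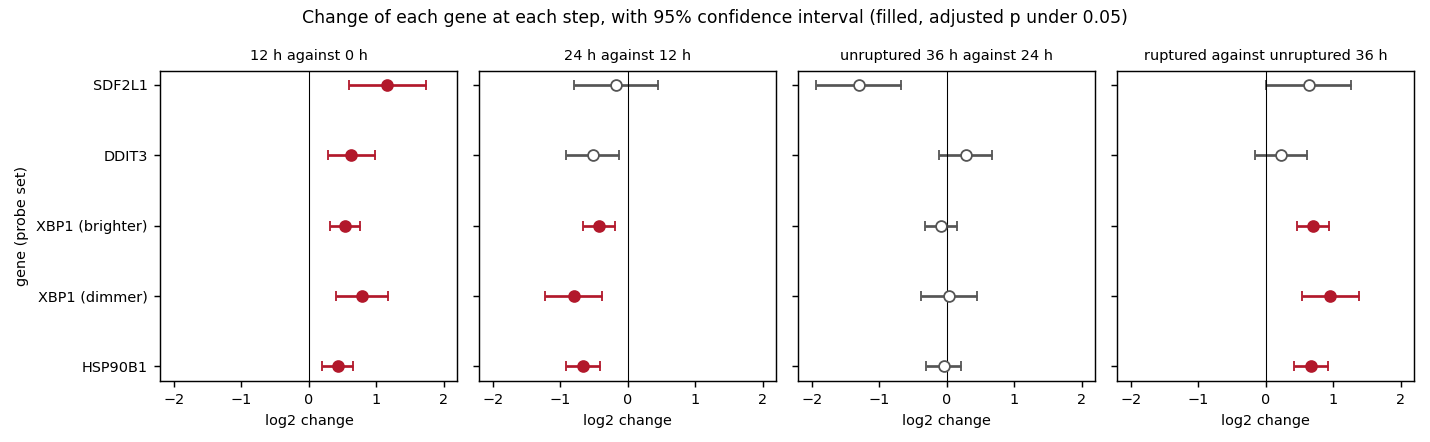
Log2 change (horizontal axis) of each gene's probe set (rows) at each step of the time course and between ruptured and unruptured follicles at 36 h (panels), with its 95% confidence interval; filled points have a limma adjusted p under 0.05. All filled points of the first panel lie above 0, XBP1 and HSP90B1 lie below 0 at 24 h against 12 h, and both lie above 0 in ruptured against unruptured follicles.

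Between 12 h and 24 h, XBP1 and HSP90B1 fell while SDF2L1 and DDIT3 were not called. Thus 2 of 4 genes fell, against 3.20% of all probe sets called lower (6.88% in either direction). Of the genes brighter than the median probe set, 7.02% fell. HSP90B1 fell by 0.67 ± 0.12 (0.629-fold; adjusted p = 0.00251, limma), to a mean of 8.34 ± 0.18 at 24 h, against 9.01 ± 0.09 at 12 h (SD, n = 4 each). XBP1 fell by 0.43 ± 0.11 in its brighter probe set (0.744-fold; adjusted p = 0.0277, limma) and by 0.81 ± 0.20 in its dimmer one (adjusted p = 0.0184, limma). DDIT3 changed by -0.52 ± 0.19 (adjusted p = 0.104, limma). SDF2L1 changed by -0.18 ± 0.30, with a 95% interval of -0.80 to 0.45 (adjusted p = 0.819, limma), and its 24 h and 12 h follicles overlapped. In XBP1 and HSP90B1, 2 of the 4 genes, no 24 h follicle overlapped with a 12 h follicle, which held for 6.32% of probe sets in this direction. The 12 h arrays serve both this step and the one before it, so the fall of XBP1 and HSP90B1 is not independent of their rise. At 24 h XBP1 averaged 9.60 against 9.49 at 0 h (adjusted p = 0.701), and HSP90B1 8.34 against 8.59 (adjusted p = 0.284, limma).

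Over this step 0 of 7 granulosa markers rose and 2 fell (summed intensity 3280 to 4670 at 24 h, 3670 to 9890 at 12 h), and 2 of 5 theca markers rose and 1 fell (1170 to 1910 at 24 h, 1460 to 3460 at 12 h). Macrophage and monocyte markers had 0 of 9 calls (3100 to 6510 at 24 h, 2620 to 6910 at 12 h), and B and plasma cell markers 0 of 6 (73.6 to 439 at 24 h, 90.8 to 117 at 12 h). Their part in the fall was not tested.

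Whether SDF2L1 moved differently from the other genes between 12 h and 24 h was tested on the difference within each array, a test chosen after the data had been seen. SDF2L1 minus HSP90B1 was higher by 0.49 at 24 h than at 12 h (n = 4 each; exact permutation p = 0.143, two-sided). The exact permutation p was 0.429 for SDF2L1 minus XBP1 and 0.543 for SDF2L1 minus DDIT3, and after adjustment over the 3 pairs all were at 0.429 or above. With 4 follicles against 4 the smallest p possible is 0.0286. A different course of SDF2L1 was not shown at this number of follicles. The HSP90B1 call at 24 h held with any 1 array left out, and 12 h replicate 2 was the follicle without which DDIT3 passed too (-0.65, adjusted p = 0.0483, limma), giving 3 called genes. The XBP1 call was lost without any of 12 h replicates 1 and 4 or 24 h replicates 1, 2 and 3 (changes of -0.36 to -0.44, adjusted p up to 0.092, limma), leaving 1 called gene. With the index as a covariate XBP1 had -0.42 (adjusted p = 0.0737), and with the 12 h and 24 h arrays alone XBP1 was at adjusted p = 0.179 and HSP90B1 at 0.0868 (limma).

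From 24 h to 36 h without rupture, 0 of 4 genes passed limma's test, where 0.00379% of all probe sets did, 2 in number, and 3298 had an unadjusted p under 0.05. SDF2L1 had the largest change of the 4, at -1.31 ± 0.30 (95% interval -1.93 to -0.68; 0.404-fold; unadjusted p = 0.000332, adjusted p = 0.38, limma). Its means were 6.53 ± 0.29 in unruptured 36 h follicles and 7.84 ± 0.29 at 24 h (SD, n = 4 each), and the groups did not overlap, which held for 2.36% of probe sets in this direction. DDIT3 had 0.28 ± 0.19 (adjusted p = 0.863), XBP1 -0.09 ± 0.11 (adjusted p = 0.945) and HSP90B1 -0.05 ± 0.12 (adjusted p = 0.982, limma). The intervals of XBP1, -0.33 to 0.15, and of HSP90B1, -0.30 to 0.20, bound the changes that these follicles allow.

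In ruptured against unruptured follicles at 36 h, XBP1 and HSP90B1 were higher and SDF2L1 and DDIT3 did not pass. Thus 2 of 4 genes rose, against 4.83% of all probe sets called higher (9.82% in either direction). Of the genes brighter than the median probe set, 8.75% rose. XBP1 rose by 0.69 ± 0.11 in its brighter probe set (95% interval 0.46 to 0.93; 1.62-fold; adjusted p = 0.000728, limma), to 10.20 ± 0.10 in ruptured and against 9.51 ± 0.08 in unruptured follicles (SD, n = 4 each). In its dimmer probe set the rise was 0.96 ± 0.20 (1.94-fold; adjusted p = 0.00448, limma). HSP90B1 rose by 0.67 ± 0.12 (1.59-fold; adjusted p = 0.00168, limma), to 8.96 ± 0.11 in ruptured and against 8.29 ± 0.14 in unruptured follicles. SDF2L1 had 0.63 ± 0.30 (95% interval 0.01 to 1.26; adjusted p = 0.216, limma), with ruptured replicate 7, at 6.51, among the unruptured values. XBP1 and HSP90B1, 2 of the 4 genes, had no overlap between the groups, as in 7.09% of probe sets in this direction. DDIT3 had 0.22 ± 0.19 (95% interval -0.16 to 0.61; adjusted p = 0.541, limma).

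The rupture calls of XBP1 and HSP90B1 held with any 1 array left out. With the 36 h arrays alone XBP1 still passed and HSP90B1 was at adjusted p = 0.0582 (limma). B and plasma cell markers summed to 80.4 to 140 in ruptured and 99 to 127 in unruptured follicles, with 0 of 6 called. Macrophage and monocyte markers had 0 of 9 calls and summed to 2760 to 4580 in ruptured and 3010 to 4520 in unruptured follicles. Of the granulosa markers 1 rose and 1 fell, with summed intensities of 5340 to 8270 in ruptured and 3620 to 5710 in unruptured follicles, and their part in the result was not tested.

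The full order of the group means shows where neighbours could not be separated. For XBP1 it ran from ruptured 36 h, through 12 h (adjusted p = 0.523 between them), to 24 h (0.0277 below 12 h), unruptured 36 h (0.945) and 0 h (0.971). HSP90B1 was highest at 12 h, followed by ruptured 36 h (adjusted p = 0.907), 0 h (0.0258 below ruptured), 24 h (0.284) and unruptured 36 h (0.982). SDF2L1 ran from 12 h through 24 h (adjusted p = 0.819), ruptured 36 h (0.184) and 0 h (0.535) to unruptured 36 h (0.618), with no neighbours separated. DDIT3 ran from 12 h through ruptured 36 h (adjusted p = 0.974), unruptured 36 h (0.541) and 24 h (0.863) to 0 h (0.834), again with no neighbours separated.

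Pairs farther apart in time gave 8 further calls for the 4 genes. Ruptured follicles exceeded 0 h follicles in XBP1 (by 0.71 ± 0.10, adjusted p = 0.000113), DDIT3 (by 0.61 ± 0.17, adjusted p = 0.0181) and HSP90B1 (by 0.37 ± 0.11, adjusted p = 0.0258, limma), while SDF2L1 had 0.31 ± 0.27 (adjusted p = 0.535); 15.8% of probe sets were called there in either direction. The DDIT3 call was lost without ruptured replicates 5 (0.58) or 8 (0.56, adjusted p = 0.055). The HSP90B1 call was lost without 0 h replicates 4 (0.35) or 5 (0.33) or ruptured replicates 5 (0.33, adjusted p = 0.0894) or 8 (0.36).

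Against 24 h, ruptured follicles were higher in XBP1 (by 0.60 ± 0.11, adjusted p = 0.00231) and HSP90B1 (by 0.62 ± 0.12, adjusted p = 0.00308, limma), with 9.31% of probe sets called. Unruptured 36 h follicles were lower than 12 h follicles in SDF2L1 (-1.49 ± 0.30, adjusted p = 0.00329), HSP90B1 (-0.72 ± 0.12, adjusted p = 0.000903) and XBP1 (-0.52 ± 0.11, adjusted p = 0.00598, limma), with 9.82% called. With only the compared groups in the fit, XBP1 and HSP90B1 in ruptured 36 h against 24 h were at adjusted p = 0.0569 and 0.0788, SDF2L1 and XBP1 in unruptured 36 h against 12 h at 0.0583 and 0.102, and HSP90B1 in ruptured 36 h against 0 h at 0.0899 (limma). SDF2L1 at 24 h exceeded 0 h by 0.98 ± 0.27 at adjusted p = 0.0536 (limma), where 3.36% of probe sets were called. The groups did not overlap, as in 3.63% of probe sets in this direction. It passed without 0 h replicate 2 (1.11, adjusted p = 0.0305), 12 h replicate 3 (adjusted p = 0.0481), 12 h replicate 4 (adjusted p = 0.0257) or ruptured replicate 7 (adjusted p = 0.0406, limma). Ruptured 36 h against 12 h gave 0 calls among the 4 genes (1.60% of probe sets called), and unruptured 36 h against 0 h gave 0 (4.72%). At an unadjusted p under 0.05 the first of these pairs had SDF2L1, at -0.85, and the second had DDIT3, at 0.38, and HSP90B1, at -0.30.

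The genes whose level most resembled that of each member over the 22 arrays were taken from 9715 other genes above median brightness. SDF2L1 was most like DNAJB11, a DnaJ partner of HSPA5 in the endoplasmic reticulum, PSMD13, a proteasome subunit, and ORMDL2, a regulator of sphingolipid synthesis, each at r = 0.848. These resemblances remained when group means were subtracted, at r = 0.799, 0.723 and 0.828. XBP1 was most like DIRAS3 (r = 0.959), a small GTPase, CCL2 (0.941), the monocyte-attracting chemokine, and STARD13 (0.941), with 0.627, 0.712 and 0.539 after subtraction. DDIT3 was most like ZNFX1 (0.885) and IFI16 (0.815), both sensors of foreign nucleic acid, and PIM1 (0.806), a kinase, with 0.697, 0.572 and 0.505. HSP90B1 was most like NOL6 (0.946), a nucleolar protein of ribosome assembly, IFRD2 (0.946) and LOC715583 (0.944), with 0.614, 0.624 and 0.659. The arrays share their groups, so these values describe the patterns and carry no test.

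**Figure D3:**
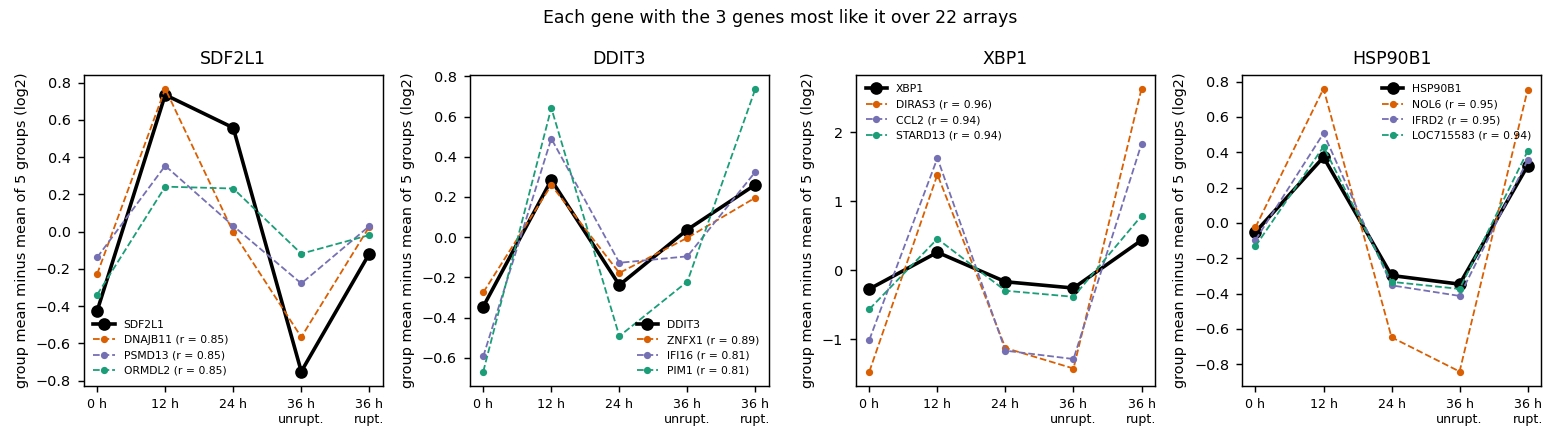
Group means of each member (thick black line) and of the 3 genes most like it (dashed lines, with Pearson's r over 22 arrays), each minus the mean of its 5 group means (vertical axis, log2), over the 5 groups (horizontal axis). CCL2 and DIRAS3 follow XBP1 with wider swings, and of the 3 genes beside SDF2L1 only ORMDL2 stays near its 12 h mean at 24 h, at 7.60 against 7.61.

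DIRAS3, the gene most like XBP1, averaged 5.25 (0 h), 8.10 (12 h) and 5.59 (24 h), with 5.29 before rupture and 9.35 after it at 36 h. CCL2 averaged 6.41 (0 h), 9.04 (12 h) and 6.25 (24 h), and 6.13 before rupture and 9.25 after it. DNAJB11 averaged 8.96 (0 h), 9.96 (12 h) and 9.19 (24 h), and 8.62 before rupture and 9.22 after it. Whether its course from 12 h to 24 h differed from that of SDF2L1 was not tested. Among the members themselves, the brighter XBP1 probe set and HSP90B1 correlated at r = 0.749 over the 22 arrays and at 0.012 after group means were subtracted. The dimmer XBP1 probe set and HSP90B1 had 0.818 and 0.458. Whether the XBP1 probe sets differ in their relation to HSP90B1 within groups was not tested. SDF2L1 and HSP90B1 had 0.457 and 0.649. SDF2L1 and DDIT3 had 0.126 and -0.158.

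To set the members among the rest of the pathway, 95 further genes in 7 role classes were looked up and 73 of them were measured, each by its brightest probe set. Of these, 68 were brighter than the median probe set and 33 (45.2%) differed between the 5 groups in the F test, against 29.0% of all genes by brightest probe set and 39.7% of the brighter genes, a share near that of the list. At 12 h against 0 h, 25 rose and 1 fell, with a median change of 0.31 against -0.0037 over all genes, where 6.50% of all genes and 8.94% of the brighter genes rose. At 24 h against 12 h, 1 rose and 16 fell, with a median of -0.15, where 5.02% of all genes and 7.02% of the brighter genes fell. In unruptured 36 h against 24 h, 0 were called in either direction. In ruptured against unruptured follicles 20 rose and 2 fell, with a median of 0.29 against -0.06 over all genes, where 6.47% of all genes and 8.75% of the brighter genes rose.

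The number called depended on single follicles. At 12 h 16 genes were called without 12 h replicate 1 or without 12 h replicate 4, in place of 26. At 24 h, in place of 17, there were 10 without 12 h replicate 1, 7 without 12 h replicate 4, 5 without 24 h replicate 1 or 2 and 10 without 24 h replicate 3. With rupture, in place of 22, there were 10 without ruptured replicate 5, 14 without unruptured replicate 1 and 12 without unruptured replicate 4. With only the compared groups in the fit 13, 0 and 3 genes were called. With the index as a covariate 12 were called with rupture, where the index averaged 0.268 ± 0.033 in ruptured and 0.323 ± 0.039 in unruptured follicles (SD, n = 4 each). Counting a further class of chaperone relatives outside the endoplasmic reticulum, 15 of 27 calls at 12 h, 7 of 21 at 24 h and 12 of 25 with rupture held with any 1 array left out. The calls named below are of that kind unless another is stated.

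**Figure D4:**
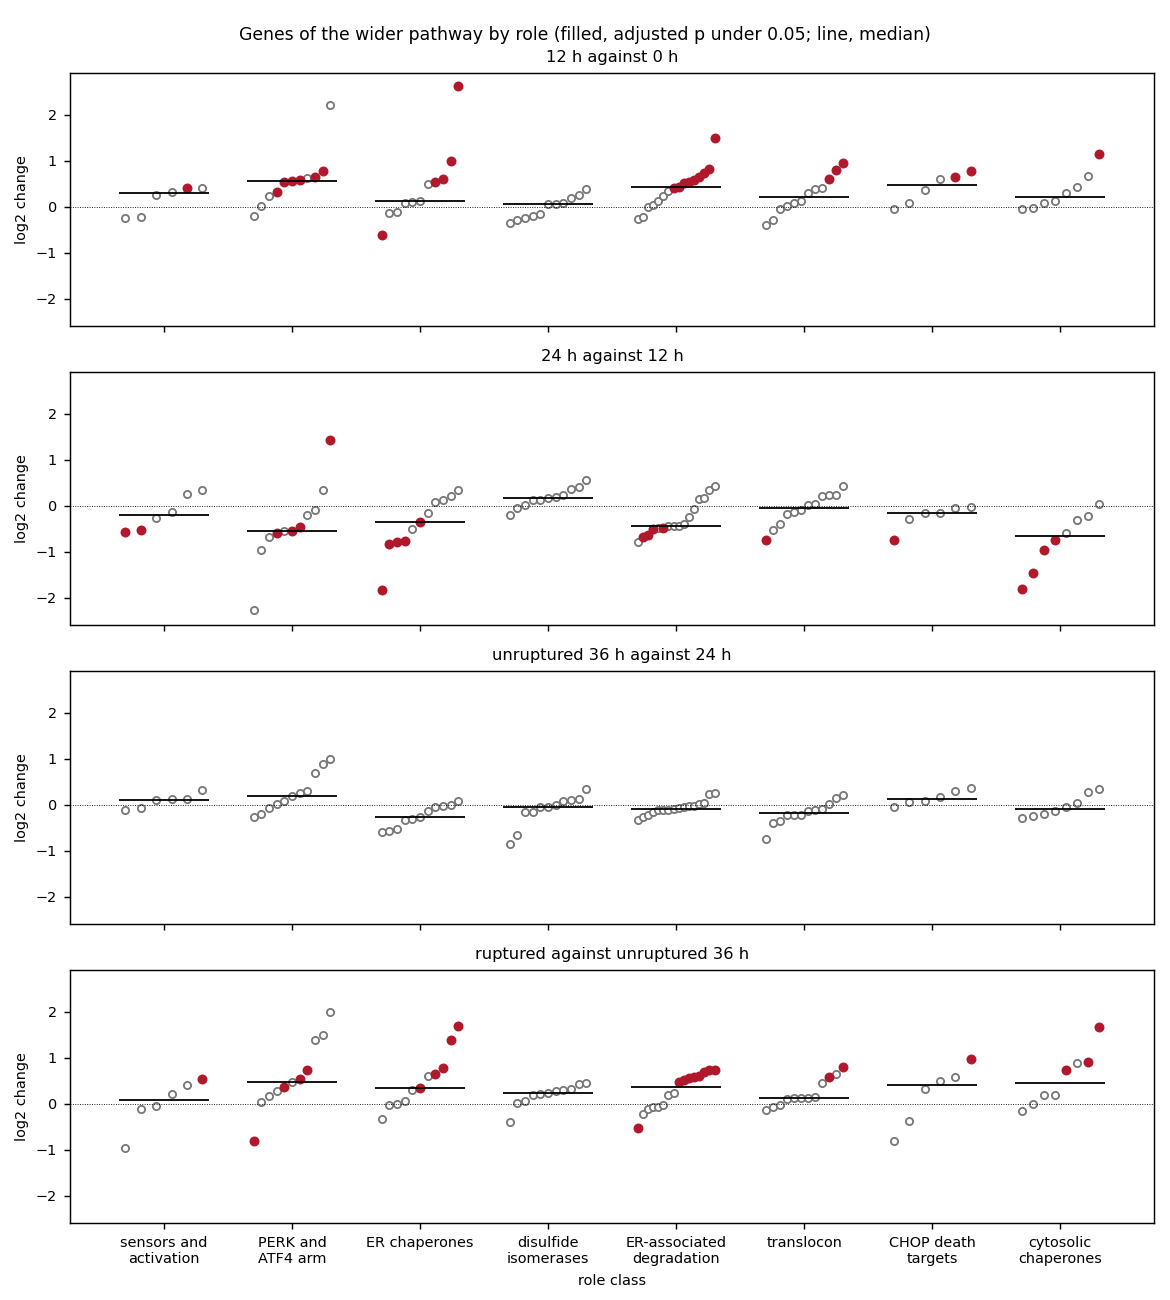
Log2 change (vertical axis) of each measured gene of the wider pathway (points), sorted within its role class (horizontal axis), in 4 comparisons (panels); filled points have a limma adjusted p under 0.05 and lines mark class medians. Of the filled points of the degradation class 9 lie above 0 at 12 h and 8 with rupture, and the disulfide isomerases have 0 filled points in these 4 panels.

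Of 6 sensors and activating enzymes, 1 rose at 12 h, 2 fell at 24 h and 1 rose with rupture. These were the tRNA ligase RTCB, which joins the XBP1 exons, at all 3 steps, and EIF2AK3, which encodes PERK, at 24 h. Of the brighter genes, 8.94% rose at 12 h, 7.02% fell at 24 h and 8.75% rose with rupture. Whether this class or those below stood apart from these shares was not tested. Another bright RTCB probe set (mean 8.73) did not change, with -0.11, -0.05 and -0.01 at the 3 steps (adjusted p = 0.619, 0.877 and 0.966, limma). A dimmer one (mean 7.18) moved with the brightest, by 0.55, -0.47 and 0.72 (adjusted p = 0.0231, 0.0884 and 0.00744, limma). The RTCB call was lost without any 1 of 14 arrays at 12 h, of 4 at 24 h and without ruptured replicate 5 at 36 h (adjusted p up to 0.149, 0.0957 and 0.0691), and the EIF2AK3 call without any 1 of 6 arrays (adjusted p up to 0.132, limma). EIF2AK3 at 12 h had 0.42 ± 0.15 (adjusted p = 0.0849, limma), and ATF6 had 0.33 ± 0.19 (adjusted p = 0.35). ERN1, which encodes IRE1, had a mean of 2.49 at 0 h, below the median probe set at 4.63, and 0.25 ± 0.58 at 12 h (adjusted p = 0.867).

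In the PERK and ATF4 arm, 6 of 11 genes rose at 12 h, 1 rose and 3 fell at 24 h, and 3 rose and 1 fell with rupture. CEBPG, a partner of ATF4 on DNA, rose by 0.57 ± 0.10 at 12 h (adjusted p = 0.00183), fell by 0.60 ± 0.11 at 24 h (adjusted p = 0.00348) and rose by 0.55 ± 0.11 with rupture (adjusted p = 0.0046, limma). EIF2S1, which encodes eIF2 alpha, rose by 0.57 ± 0.13 at 12 h (adjusted p = 0.00779) and by 0.74 ± 0.14 with rupture (adjusted p = 0.00252, limma); another bright probe set of the gene had the opposite sign, at -0.20 (adjusted p = 0.55) and -0.39 (adjusted p = 0.21), and at 24 h these probe sets were called in opposite directions. NUPR1, a stress-induced nuclear protein, went the other way: it rose by 1.43 ± 0.23 at 24 h (adjusted p = 0.000931, limma), to a mean of 10.99 ± 0.18 at 24 h against 9.56 ± 0.56 at 12 h. ATF4 itself rose by 0.33 ± 0.10 at 12 h (adjusted p = 0.0441) and 0.37 ± 0.11 with rupture (adjusted p = 0.0364), and the calls were lost without any 1 of 15 and of 7 arrays (adjusted p up to 0.111 and 0.114, limma). TRIB3, a pseudokinase induced by ATF4 and CHOP, had 2.21 ± 0.71 at 12 h but did not pass (adjusted p = 0.0562, limma), and its mean of 2.60 at 0 h was dim. TRIB3 and ATF4 were singled out after their values were seen.

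Of 11 chaperones and co-chaperones of the endoplasmic reticulum, 4 rose and 1 fell at 12 h, 5 fell at 24 h and 5 rose with rupture. The DnaJ protein DNAJC1 had the widest swing, with means of 10.47 ± 1.24 at 12 h and 7.84 ± 0.43 at 0 h (rise of 2.63 ± 0.41, adjusted p = 0.00053, limma). DNAJB11 rose to 9.96 ± 0.43 at 12 h against 8.96 ± 0.13 at 0 h (adjusted p = 0.00181, limma). FKBP14, a prolyl isomerase that acts on collagens, fell by 0.78 ± 0.17 at 24 h (adjusted p = 0.0102) and rose by 1.38 ± 0.17 with rupture (adjusted p = 8.95e-05, limma). SDF2, the paralog of SDF2L1, moved against it at 12 h. Its mean was 8.55 ± 0.06 at 12 h and 9.15 ± 0.17 at 0 h, and it fell by 0.60 ± 0.10 (adjusted p = 0.000796, limma).

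Of 16 genes of endoplasmic reticulum-associated degradation, 9 rose at 12 h, 4 fell at 24 h, and 8 rose and 1 fell with rupture. The ubiquitin ligase SYVN1 rose by 0.74 ± 0.11 at 12 h (adjusted p = 0.000418) and fell by 0.68 ± 0.12 at 24 h (adjusted p = 0.00251, limma). The signal peptide peptidase HM13 rose by 0.82 ± 0.16 at 12 h (adjusted p = 0.00306) and by 0.73 ± 0.18 with rupture (adjusted p = 0.0123, limma). SELENOS, a selenoprotein that recruits the p97 ATPase, had means of 9.93 (0 h), 10.58 (12 h) and 10.10 (24 h), and of 9.98 before rupture and 10.55 after it, and all 3 of its calls held. The E2 enzyme UBE2G2 and the mannosidase-like EDEM3 rose with rupture by 0.72 ± 0.14 and 0.70 ± 0.13 (adjusted p = 0.00259 and 0.0025, limma). HERPUD1, a scaffold of the degradation complex, was not called at 24 h: it rose by 0.55 ± 0.12 at 12 h (adjusted p = 0.0076) and had 0.15 ± 0.13 at 24 h against 12 h (adjusted p = 0.622, limma). SELENOS and HERPUD1 were singled out after their values were seen.

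For the next 2 classes, the shares of the brighter genes were 8.94% rising at 12 h, 7.02% falling at 24 h and 8.75% rising with rupture. Of 12 translocon genes, 3 rose at 12 h, 1 fell at 24 h and 2 rose with rupture. SEC61A1, the channel subunit, rose by 0.96 ± 0.17 at 12 h (adjusted p = 0.00118) and by 0.79 ± 0.18 with rupture (adjusted p = 0.00905, limma). Of 6 cell death genes linked to CHOP, 2 rose at 12 h, 1 fell at 24 h and 1 rose with rupture. BAK1, a pore-forming protein of mitochondrial apoptosis, rose by 0.77 ± 0.17 at 12 h (adjusted p = 0.00631) and by 0.96 ± 0.18 with rupture (adjusted p = 0.00242, limma).

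Of 11 disulfide isomerases and oxidative folding enzymes, 0 were called by limma at these 4 steps, where 8.94% of the brighter genes rose at 12 h and 8.75% with rupture, shares too small for 0 of 11 to stand apart. In pairs farther apart 2 rose in ruptured 36 h against 0 h, 2 in unruptured 36 h against 12 h, 1 in ruptured 36 h against 12 h and 1 in ruptured 36 h against 24 h, and ERP29 passed the F test (adjusted p = 0.00988). Of all probe sets, 7.01%, 4.97%, 0.942% and 4.40% were called higher in these pairs, in the same order. Whether the class stood apart from them was not tested. P4HB, the classical protein disulfide isomerase, averaged 11.10 at 12 h and 10.71 at 0 h (change 0.39 ± 0.19, adjusted p = 0.243), and PDIA6 had 0.26 ± 0.27 (adjusted p = 0.645, limma). The class medians were 0.05 at 12 h, 0.17 at 24 h and 0.23 with rupture.

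Of 8 chaperone relatives outside the endoplasmic reticulum, 1 rose at 12 h, 4 fell at 24 h and 3 rose with rupture. The shares of the brighter genes were 8.94%, 7.02% and 8.75% in the same order. HSPH1, a cytosolic exchange factor of HSP70, rose by 1.15 ± 0.24 at 12 h (adjusted p = 0.00557), fell by 1.82 ± 0.27 at 24 h (adjusted p = 0.000597) and rose by 1.66 ± 0.27 with rupture (adjusted p = 0.000671, limma). HSPA9, the mitochondrial HSP70, fell by 0.96 ± 0.13 at 24 h (adjusted p = 0.000279) and rose by 0.90 ± 0.13 with rupture (adjusted p = 0.000244, limma). HSPH1 and HSPA9, named for their large changes, were called at the same steps as HSP90B1, apart from HSPA9 at 12 h (0.31 ± 0.12, adjusted p = 0.116, limma). Of the 8 relatives, 5 passed the F test. HSP90AB1, HSPA8 and TRAP1 did not (adjusted p = 0.147, 0.954 and 0.476, limma).

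**Figure D5:**
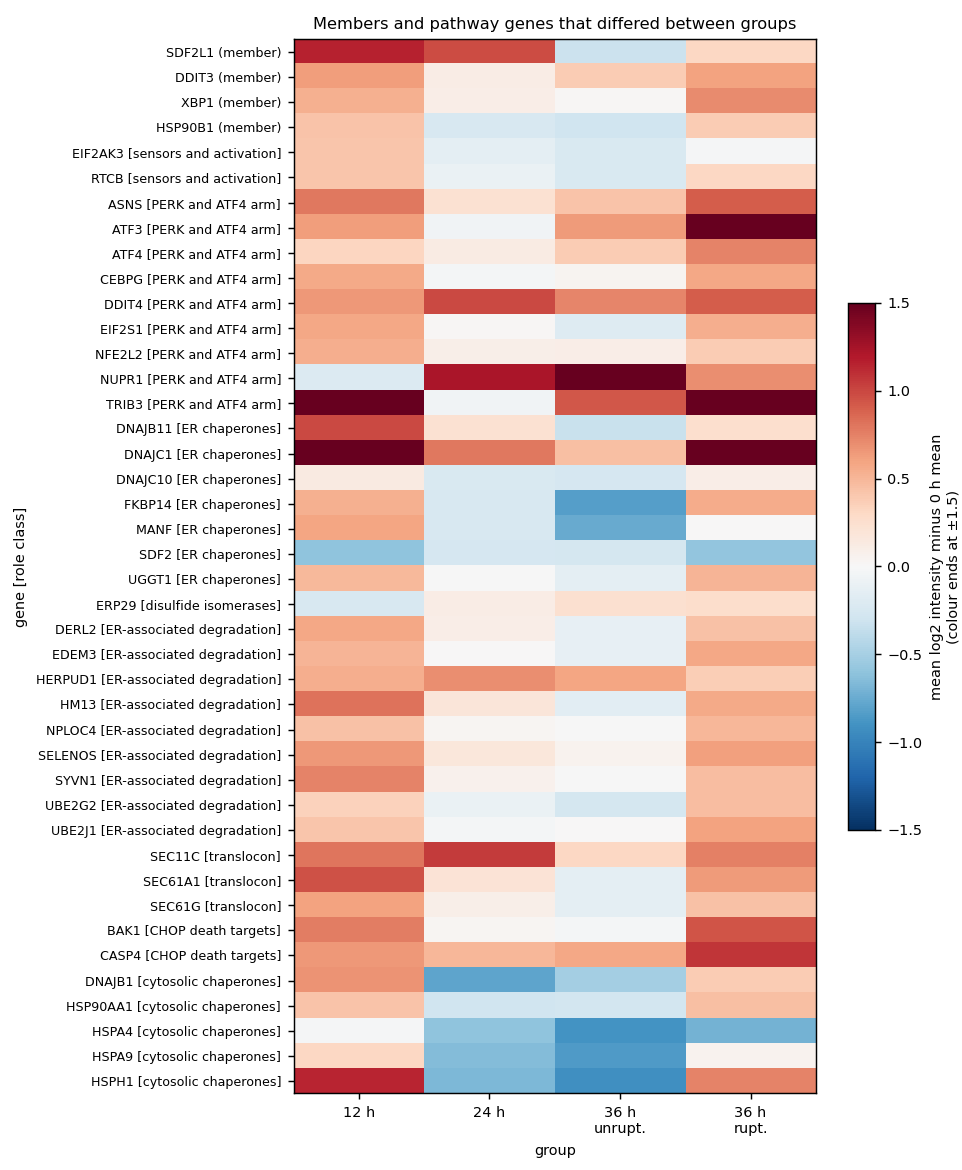
Mean log2 intensity minus the 0 h mean (colour, red higher and blue lower, ending at 1.5 in either direction) of the members and of each wider pathway gene that passed limma's F test (rows, with role class), in 4 groups (columns). Most rows are red at 12 h and in ruptured follicles and pale between them, SDF2 is blue throughout and NUPR1 is red from 24 h on.

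The 12 h against 0 h and the ruptured against unruptured comparisons take their means from different arrays. All groups were fitted together, so both use the same variance estimate for each gene, and their calls are not independent. With only the compared groups in the fit, fewer genes of the wider list were called in each comparison, and the overlap is not given for that fit. With all groups in the fit, 17 genes of the wider list rose in both comparisons. That is 68% of the 25 that rose at 12 h and 85% of the 20 that rose with rupture. Among all genes by brightest probe set 420 rose in both, 45.7% of those that rose at 12 h and 45.9% of those that rose with rupture, and among the brighter genes the shares were 46.8% and 47.9%. XBP1 and HSP90B1 were called higher in both comparisons, and SDF2L1 and DDIT3 at 12 h alone; whether SDF2L1 and DDIT3 responded differently to rupture than XBP1 and HSP90B1 was not tested.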

How the data were processed

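RNA of 22 follicles in 5 groups was measured on Affymetrix rhesus macaque arrays. The deposited values are intensities, 1 for each of 52865 probe sets on each array, made with RMA per the submitters' processing notes (version not given). RMA corrects background, normalizes between arrays and summarises the probes of a set. It usually gives log2 values, but the deposited intensities ran from 0.0361 to 15137, so log2 was taken here. Scan dates, batches and detection calls are not used here, so no batch could be tested, and the number of arrays limits the precision.

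The 99 control probe sets were left out. Each sample's title gave its group and replicate number. Symbols came from the platform annotation: 24956 probe sets had 1 symbol, 361 several and 27449 none, and 24616 gene IDs matched the RefSeq gene table, with 0 symbols updated. A gene is given by its brightest probe set unless stated. limma 3.58.1 in R 4.3.3 (lmFit, eBayes) was fitted to all 52766 probe sets with 5 group means, with two-sided p-values adjusted by Benjamini-Hochberg across all of them. In simulated data with 100 probe sets changed 2-fold and 100 changed 4-fold, 65% and 95% were recovered at 12 h against 0 h, 51% and 93% at 24 h against 12 h, 62% and 90% at unruptured 36 h against 24 h and 56% and 93% at ruptured against unruptured 36 h. The adjusted p depends on how many probe sets change. In the real data 2 were called at unruptured 36 h against 24 h and 5181 with rupture, so these shares do not carry over to the real steps.

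Every probe set of the members was described. From each class of the wider list the rule took up to 3 called genes with the largest change in a step, and the text gives those whose calls held with any array left out, a restriction made after the values were seen. For likeness, the 3 genes best correlated with each member (Pearson) were taken. The members and lists were chosen with earlier results of these data known. Alternatives were other normalizations, filters, variance priors and array weights, averaged probe sets, a pseudocount of 16, the control probe sets' 3′ minus 5′ index as covariate, only the compared groups in the fit, the replicate number as a block, and each array left out. No promoter, protein or probe sequence is given here.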

Additional observations from a re-analysis of the deposited data

How the results depend on the processing

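Fitting only the compared groups called 0 of the member genes at 12 h (4 with all 5 groups), 0 at 24 h (2), 1 with rupture (2) and 3 in the other pairs (8), and of the wider list 13 at 12 h (26), 0 at 24 h (17), 3 with rupture (22) and 16 over all steps. Averaging all probe sets of a gene called 1 member gene at 24 h, 1 with rupture and 5 in the other pairs. The index as a covariate called 1 member gene at 24 h and 12 of the wider list with rupture. With any 1 array left out, 3 to 4 member genes were called by the F test, 2 to 4 at 12 h, 1 to 3 at 24 h, 0 to 0 in unruptured 36 h against 24 h, 2 to 2 with rupture and 6 to 9 in the other pairs, and of the wider list 16 to 27 at 12 h, 5 to 19 at 24 h and 10 to 24 with rupture. SDF2L1 at 24 h against 0 h passed with 16 added (0.89, adjusted p = 0.029), array weights (adjusted p = 0.0242), dim probe sets left out (adjusted p = 0.0182) and a trended robust prior (adjusted p = 0.0202, limma); DDIT3 passed at 24 h against 12 h with dim probe sets left out (adjusted p = 0.0395). Over all probe sets the number called fell to 2740 from 4922 at 12 h, 189 from 3628 at 24 h and 1318 from 5181 with rupture when only the compared groups were fitted. No change of sign occurred among called member values. Fewer arrays in a fit also means fewer residual degrees of freedom. Standard errors of the lost member calls grew as well. For the dimmer XBP1 probe set at 24 h against 12 h the rise was from 0.199 to 0.287. The SD of that probe set was 0.58 at 12 h and 0.09 at 24 h. The part of each in the loss of calls, and other causes, were not tested.

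No pairing of the follicles by replicate number was seen, which does not exclude one. Of 26 same-numbered pairs 1 correlated above 0.1 in its deviations from the group means (range -0.179 to 0.173), and 0 of 20 follicles correlated best with their own number. With the number as a replicate block, 1 member gene was called at 12 h, 1 at 24 h, 0 with rupture and 4 in the other pairs, and of the wider list 12, 4 and 0, or 16 over the steps. Over all probe sets it called 2418 at 12 h, 2021 at 24 h and 34 with rupture. Ruptured follicles carry numbers 5 to 8 and unruptured ones 1 to 4, so that comparison is linked only through 0 h replicates 5 and 6.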
